A study of Mus musculus with 20 samples.

Results

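The nuclear oxidative phosphorylation (OXPHOS) genes were followed in macrophages sorted from fibrotic mouse livers. Members were the rows of the deposited expression table whose gene symbol begins with Nduf followed by a, b, c, s or v and a digit, with Uqcr, with Cox4 to Cox8 or with Atp5, together with Sdha, Sdhb, Sdhc and Sdhd, leaving out pseudogenes named as such. The rule used names and no measured value. It gave 84 members of 59311 rows, with 37 in complex I, 4 in complex II, 8 in complex III, 18 in complex IV and 17 in complex V by symbol.

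Male C57BL/6 mice aged 10 to 12 weeks received carbon tetrachloride (CCl4, 0.6 ml/kg, 2 injections a week for 4 weeks), which damages hepatocytes and leads to liver fibrosis. All groups carried this injury, and no uninjured group was analysed here. Of the 10 mice, 5 received vehicle (1% DMSO in PBS; mice 11 to 15) and 5 received acetyl-6-formylpterin (Ac-6-FP, 0.25 mg/kg; mice 16 to 20), a folate derivative that occupies the MR1 molecule and thereby blocks activation of mucosal-associated invariant T (MAIT) cells, from 2 h before the last CCl4 injection and daily for the 2 following days. From each liver CD11b+ F4/80+ cells without Ly6G, CD11c or CD3 were sorted into a Ly6C hi fraction, which holds recently recruited inflammatory monocyte-derived macrophages, and a Ly6C low fraction, which holds macrophages associated with repair. Bulk RNA from about 30000 cells per fraction was sequenced, giving 20 libraries with 5 mice in each of the 4 groups.

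Oxidative phosphorylation is carried out in the inner mitochondrial membrane. Complexes I and II pass electrons from NADH and succinate to ubiquinone, complex III passes them on to cytochrome c, complex IV reduces oxygen, and complex V, the ATP synthase, uses the proton gradient so formed to make ATP. Most subunits are encoded in the nucleus and imported, whereas a few core subunits of complexes I, III, IV and V are encoded by mitochondrial DNA, and complex II is wholly nuclear. In macrophages, inflammatory activation is classically associated with glycolysis and alternative activation with oxidative metabolism.

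The libraries held between 5693049 and 18682437 reads on genes, and between 5343 and 15766 genes above 0. The Ly6C low library of mouse 13 stood apart: it was the shallowest, and 2765 of 6652 genes that were otherwise well expressed were listed at 0 in it. Against the sort labels, all 6 genes of the Ly6C hi list, Ly6c2 and Ccr2 among them, were higher in Ly6C hi. Of the 6 genes of the Ly6C low list, Cd9, Treml4 and Ace were higher in Ly6C low, and Cx3cr1, Nr4a1 and Gpnmb did not pass (log2 -0.45, 0.59 and 0.92 for Ly6C hi against Ly6C low). The Ly6C low libraries also held transcripts of other lineages: 5 T and NK cell markers in the table summed to between 22189 and 50176 normalized counts there against 0 to 582 in Ly6C hi, led by Nkg7, Klrb1c and Lck, while Cd3e was at 0 in 8 of the 10 Ly6C low libraries. Dendritic cell markers, led by Cd209a, summed to between 4679 and 19377 in Ly6C low and to at most 535 in Ly6C hi. Of 6 neutrophil and granulocyte genes, Elane and Mpo were higher in Ly6C hi, and Csf3r, S100a8, S100a9 and Ly6g did not pass (log2 2.33, 0.94, -0.39 and -1.52). In the B cell, hepatocyte and Kupffer cell lists 1 gene each was higher in Ly6C low, and in the endothelial, stellate, erythroid and cycling cell lists 0 genes passed, with Lrat, which marks stellate cells, at 0 throughout. In bulk RNA, fewer cells of a type and less RNA per cell cannot be told apart, and the part that these other transcripts had in the differences below was not tested.

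Transcripts of every complex were abundant. Of the 84 members, 79 reached a mean of 10 normalized counts (the deposited unit, read counts divided by a factor for library size) in at least 1 group and were tested, among 17248 genes in all, and 66 of these had a mean of 1000 or more over the 20 libraries. Ndufa4l2, Cox7b2, Cox8b and Cox8c were at 0 in all 20 libraries. A value of 0 means that 0 reads were counted, which does not exclude a low level. Cox4i2 was at 0 in 18 libraries and reached 1.72 and 26.83 normalized counts in the Ly6C hi libraries of mice 19 and 20.

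Each of these 5 is a form found mainly in particular tissues or conditions, and its ubiquitous partner was expressed. Compared per kilobase of annotated transcript, Cox4i1, the common form of the subunit through which ATP regulates complex IV, stood at 16263 normalized counts per kilobase in Ly6C hi and 12084 in Ly6C low, against 3.911 and 0 for Cox4i2. Cox6b1 stood at 13384 and 11311 normalized counts per kilobase, against 285.2 and 110.6 for its testis-enriched form Cox6b2. Cox6a1 stood at 8261 and 7175, against 24.99 and 120.8 for Cox6a2, the heart and muscle form, and Cox7a2 at 3415 and 3266 against 72.5 and 72.2 for Cox7a1, again the muscle form. In each of these pairs the general isoform led in both fractions. Among the 3 genes for the c ring of the ATP synthase, whose mature proteins are the same, Atp5g3 led with 2071 normalized counts per kilobase in Ly6C hi, ahead of Atp5g2 with 624.3 and Atp5g1 with 424.9, and the order was the same in Ly6C low. By normalized counts alone Atp5g1 stood ahead of Atp5g2, at 1137 against 365.9 in Ly6C hi and 953.2 against 215.7 in Ly6C low. The order of Atp5g2 and Atp5g1 per kilobase therefore rests on their annotated lengths, 586 and 2675.5 bases. The counts were made on constitutive parts of each gene, so levels per kilobase of whole transcript are approximate.

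As a share of all normalized counts, the members took more of the Ly6C hi than of the Ly6C low transcriptome in 10 of 10 mice. The share was 2.05% ± 0.188 in Ly6C hi (SD, n = 10; range 1.802% to 2.36%) and 1.53% ± 0.239 in Ly6C low (SD, n = 10; range 1.19% to 1.89%). The ranges overlapped between mice, but within a mouse the ratio of Ly6C hi to Ly6C low was never below 1.22 and reached 1.55. Without Cox4i1, the member with the most counts, the share was 1.95% in Ly6C hi and 1.46% in Ly6C low, again higher in Ly6C hi in 10 of 10 mice. By complex, the geometric mean ratio was 1.35 for complex I, 1.43 for complex II, 1.304 for complex III, 1.36 for complex IV and 1.35 for complex V. The value for complex II rested in part on mouse 13, with a ratio of 2.08, and without that mouse the ratios were 1.37 for complex I and 1.37 for complex II. For complex III the share was higher in Ly6C hi in 9 mice and for each of the others in 10.

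By group, the share was 2.12% ± 0.239 in Ly6C hi of vehicle mice, 1.98% ± 0.101 in Ly6C hi of Ac-6-FP mice, 1.69% ± 0.223 in Ly6C low of vehicle mice and 1.38% ± 0.134 in Ly6C low of Ac-6-FP mice (SD, n = 5 each). The share moved with the number of genes detected in a library: across the 10 libraries of Ly6C hi, Pearson's r was -0.816 and Spearman's rho -0.818, and across the 10 of Ly6C low they were -0.785 and -0.855. Without the 2 libraries farthest from the median number of genes, r was -0.733 in Ly6C hi and -0.771 in Ly6C low. These are descriptions, since the share and the number of genes come from the same libraries and depth. The number of genes detected was 12102 ± 2309 in Ly6C hi and 12488 ± 3338 in Ly6C low (SD, n = 10 each). It was lower in Ly6C hi in 9 of 10 mice, all but mouse 13, and its part in the difference in share was not tested.

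**Figure D1:**
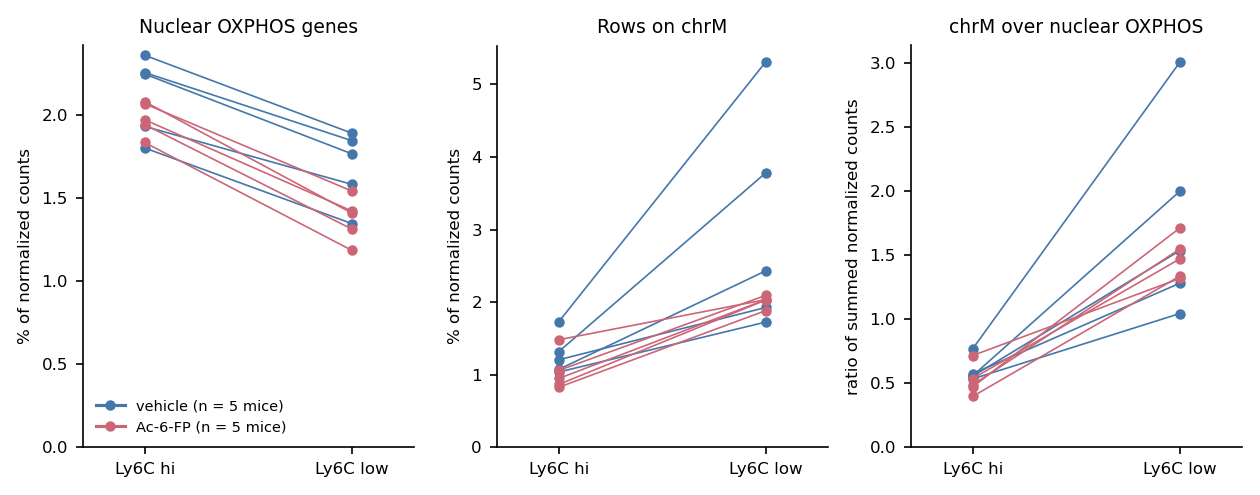
Shares of normalized counts (vertical axes, percent in the first and second panels, ratio of summed counts in the third) in the Ly6C hi and Ly6C low libraries, with lines joining the libraries of each mouse and colour marking vehicle and Ac-6-FP. Nuclear OXPHOS genes took a larger share in Ly6C hi in 10 of 10 mice, whereas rows on mitochondrial DNA (chrM) took a larger share in Ly6C low in 10 of 10.

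The first comparison asked how the members differed between Ly6C hi and Ly6C low macrophages of the same mouse. Of the 79 tested members, 11 were higher in Ly6C hi and 0 lower at an adjusted p below 0.05 (limma on within-mouse differences of log2(normalized count + 1), Benjamini-Hochberg over all 17248 genes), while 34 members were higher and 1 lower at an unadjusted p below 0.05, against 7.21% and 9.99% of all genes. The 11 are 13.9% of the members, and 1.81% of all genes tested were higher in Ly6C hi by the same rule (5.22% in either direction). Among the 2047 genes with a mean of 1000 or more that figure was 9.57%, against 16.7% of the 66 members at that level. The median log2 difference was 0.29 over the members, -0.03 over all genes and 0.10 over the genes with a mean of 1000 or more. Of the members 70 had a value above 0, which is 88.6% against 48.8% of all genes, and 12 were higher in Ly6C hi in 10 of 10 mice, as were 1.87% of all genes.

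**Figure D2:**
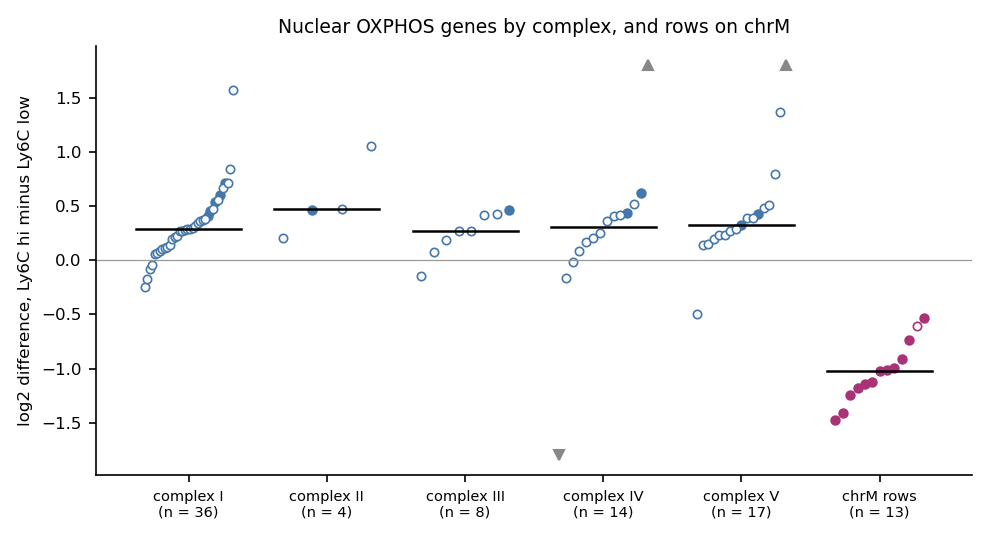
The log2 difference between Ly6C hi and Ly6C low (vertical axis) for each tested member by complex, and for the 13 rows on chrM, with filled points past an adjusted p of 0.05, black bars at medians and grey triangles for 3 members beyond the axis. Nuclear medians lie between 0.27 and 0.47 and the chrM median at -1.02.

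In complex I, 5 of 36 tested members were higher in Ly6C hi and 0 lower, with a median log2 difference of 0.29. Ndufs8, which carries iron-sulfur clusters in the arm that hands electrons to ubiquinone, ranged from 2850 to 3905 normalized counts with a median of 3046 in Ly6C hi, and from 1288 to 2857 with a median of 1835 in Ly6C low. It was higher in Ly6C hi in 10 of 10 mice, 1.64-fold (log2 0.71 ± 0.13 SE, adjusted p = 0.00723), and the ranges overlapped by a single library, the 2857 of Ly6C low. Ndufa4, first assigned to complex I and now counted with complex IV, ranged from 3278 to 5106 with a median of 4046 in Ly6C hi and from 1941 to 4406 with a median of 2440 in Ly6C low. Its difference was 1.52-fold (log2 0.60 ± 0.11 SE, adjusted p = 0.00467), the smallest adjusted p of any member.

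The other 3 of complex I are accessory subunits, which surround the catalytic core and carry no redox centre. Ndufb8, from 7150 to 12672 with a median of 10369 in Ly6C hi and from 4977 to 12948 with a median of 7263 in Ly6C low, was higher in Ly6C hi in 9 of 10 mice (1.33-fold, adjusted p = 0.00811). Ndufb11, on the X chromosome, had medians of 3932 and 2750 and was higher in 10 of 10 (1.37-fold, adjusted p = 0.0142). Ndufa3 had medians of 2274 and 1558 and was higher in 10 of 10 (1.45-fold, adjusted p = 0.0297). For all 3 the highest Ly6C low library lay above the median of Ly6C hi, and without the pairing within mice the call on Ndufb8 was lost. The core NADH-binding subunit Ndufv1, with a log2 difference of 0.84 ± 0.24 SE, did not pass (adjusted p = 0.0728), nor did Ndufa10, whose 1.57 ± 0.82 SE rested on a value of 0 in the Ly6C low library of mouse 13 (adjusted p = 0.361; 9 of 10 mice; two-sided exact sign-flip permutation p = 0.00391). At the other end, Ndufa5 stood at -0.25 ± 0.20 SE (adjusted p = 0.562).

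Complex II is both an enzyme of the citric acid cycle and an entry point for electrons. Sdhb, its iron-sulfur subunit, ranged from 5794 to 11363 normalized counts with a median of 8019 in Ly6C hi and from 5155 to 10323 with a median of 5786 in Ly6C low. It was higher in Ly6C hi in 10 of 10 mice (1.38-fold, log2 0.46 ± 0.09 SE, adjusted p = 0.0105), although the ranges overlapped widely between mice. Without mouse 13 the median log2 difference of the 4 members was 0.23 in place of 0.47. The membrane anchor Sdhd had a log2 difference of 0.48 ± 0.13 SE and did not pass (adjusted p = 0.0635), and the flavoprotein Sdha, listed at 0 in the Ly6C low library of mouse 13, was higher in 6 of 10 mice (adjusted p = 0.572). The other anchor, Sdhc, stood lowest at 0.20.

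In complex III, 1 of 8 members passed. Uqcrc1, a core protein on the matrix side, ranged from 6591 to 12143 normalized counts with a median of 9041 in Ly6C hi and from 4795 to 7877 with a median of 6447 in Ly6C low, and was higher in 10 of 10 mice (1.38-fold, log2 0.46 ± 0.12 SE, adjusted p = 0.0411). Its partner core protein Uqcrc2 stood at -0.15 ± 0.13 SE and was higher in Ly6C hi in 4 of 10 mice (adjusted p = 0.612). The Rieske iron-sulfur protein Uqcrfs1, which passes electrons towards cytochrome c, had a log2 difference of 0.43 and did not pass (adjusted p = 0.782). The call on Uqcrc1 was lost in 13 of 23 alternative analyses, among them the one without mouse 13 and edgeR.

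In complex IV, 2 of 14 tested members were higher in Ly6C hi. Cox4i1 ranged from 10018 to 14334 normalized counts with a median of 12146 in Ly6C hi, and from 6295 to 11844 with a median of 9457 in Ly6C low, with Ly6C hi higher in 10 of 10 mice (1.36-fold, log2 0.44 ± 0.09 SE, adjusted p = 0.0181). Cox6c, a small membrane subunit, ranged from 2213 to 3884 with a median of 2903 in Ly6C hi and from 1403 to 3062 with a median of 1835 in Ly6C low, and was higher in 10 of 10 (1.53-fold, log2 0.62 ± 0.13 SE, adjusted p = 0.0178). The call on Cox4i1 was lost in 6 of 23 alternative analyses, among them those without mouse 14, 16, 19 or 20, and that on Cox6c in 2. Cox8a was also higher in 10 of 10 mice but did not pass (1.28-fold, adjusted p = 0.0967). The supercomplex factor Cox7a2l stood at -0.02 (adjusted p = 0.938). Cox6b2, listed at 0 in 4 libraries, had the highest value of complex IV, 2.26 ± 1.33 SE.

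Cox6a2 was the only member lower in Ly6C hi at an unadjusted p below 0.05. It was at 0 in 6 of 10 Ly6C hi libraries, with a highest value of 73.7, and at 0 in 2 of 10 Ly6C low libraries, with a highest value of 258.9. The two-sided exact sign-flip permutation test gave p = 0.0586, and the adjusted p in limma was 0.163. Without mouse 13, whose Ly6C hi and Ly6C low libraries were both at 0, it passed in limma (adjusted p = 0.0493, by the same adjustment).

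In complex V, 2 of 17 members were higher in Ly6C hi. Atp5c1, the gamma subunit that forms the rotating shaft of the catalytic F1 head, ranged from 7820 to 9669 normalized counts with a median of 8252 in Ly6C hi and from 3748 to 8493 with a median of 6669 in Ly6C low, and was higher in 10 of 10 mice (1.35-fold, log2 0.43 ± 0.10 SE, adjusted p = 0.0328). Atp5o, which joins the head to the outer stalk, had medians of 5885 and 4458 and was higher in 9 of 10 (1.26-fold, log2 0.33 ± 0.08 SE, adjusted p = 0.0400). The alpha and beta subunits of the head, Atp5a1 and Atp5b, stood at 0.39 and 0.14 and did not pass. The member with the highest value, Atp5sl at 2.70, is named for a likeness to an ATP synthase factor and is now known as Dmac2, an assembly factor of complex I. The calls on Atp5c1 and Atp5o were each lost in 12 of 23 alternative analyses, with edgeR among them. Atp5sl was listed at 0 in 3 Ly6C low libraries and did not pass (adjusted p = 0.165; two-sided exact sign-flip permutation p = 0.0703, 7 of 10 mice).

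**Figure D3:**
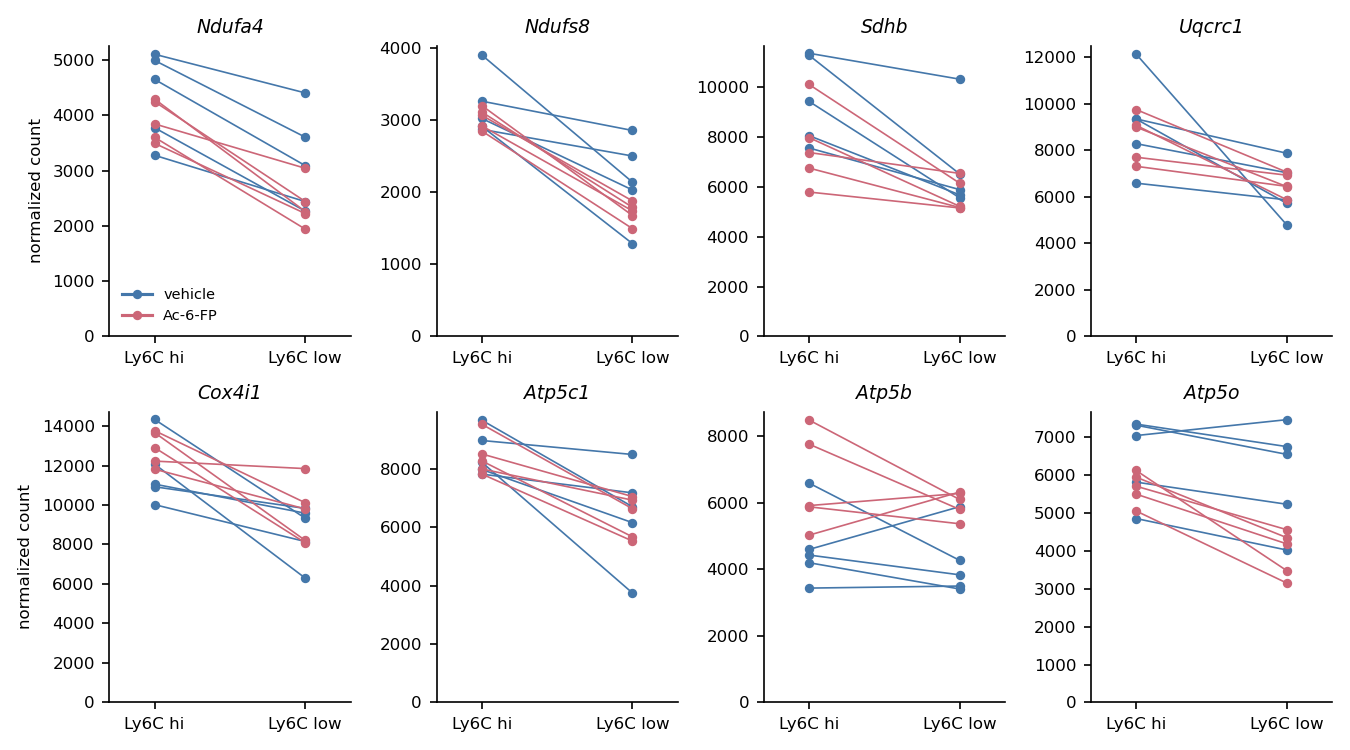
Normalized counts (vertical axes, from 0) of 8 members in Ly6C hi and Ly6C low, with lines joining the libraries of each mouse and colour marking treatment. Ndufa4, Ndufs8, Sdhb, Uqcrc1, Cox4i1 and Atp5c1 fall from Ly6C hi to Ly6C low in 10 of 10 mice, Atp5o in 9 and Atp5b in 6.

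With edgeR on the reads recovered from the table, 8 members passed in place of 11, and without mouse 13 there were 13 higher and 1 lower. Within the 5 vehicle mice alone 0 members passed in limma, with 15 higher and 1 lower at an unadjusted p below 0.05 and a median log2 difference of 0.22, and of all 17248 genes 15 were called higher there. Within the 5 Ac-6-FP mice 9 members passed, all higher in Ly6C hi, with a median of 0.37, and 159 of all genes were called higher. Gene by gene, the difference between these treatments is the third comparison, in which 0 members passed in limma. Without mouse 16 or without mouse 19, 7 members passed.

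Promoter sequences of 4 of the called members are shown as examples (genes at chr19:3908864-3912775, chr6:11900373-11907451, chr4:140961271-140979198 and chrX:20615326-20617619 for Ndufs8, Ndufa4, Sdhb and Ndufb11). Binding sites for NRF1 and ETS factors, regulators of respiratory genes, are known from promoters of this kind. Each line gives the 150 bases upstream of the annotated start (RefSeq, GRCm38.p6, the build of the files), with capitals marking matches on either strand to GCNTGCGC (the core of the NRF1 site), CCGGAAG (ETS), AAGATGG (YY1) or CCAAT.
Ndufs8, chr19:3912775-3912924, minus strand: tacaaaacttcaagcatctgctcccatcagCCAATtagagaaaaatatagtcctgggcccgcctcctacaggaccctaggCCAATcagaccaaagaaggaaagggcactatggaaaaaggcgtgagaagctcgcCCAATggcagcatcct
Ndufa4, chr6:11907451-11907600, minus strand: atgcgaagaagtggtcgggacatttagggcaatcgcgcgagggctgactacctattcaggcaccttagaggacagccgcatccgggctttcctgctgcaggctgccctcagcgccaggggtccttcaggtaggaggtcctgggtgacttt
Sdhb, chr4:140961121-140961270, plus strand: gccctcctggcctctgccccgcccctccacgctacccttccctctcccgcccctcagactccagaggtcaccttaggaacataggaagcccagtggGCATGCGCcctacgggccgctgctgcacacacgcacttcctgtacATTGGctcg
Ndufb11, chrX:20617620-20617769, minus strand: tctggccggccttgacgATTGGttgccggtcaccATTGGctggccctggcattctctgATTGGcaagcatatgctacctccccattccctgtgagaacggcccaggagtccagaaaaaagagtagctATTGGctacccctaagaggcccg

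Sdhb has an NRF1 core match 54 bases before the start and a CCAAT box 9 bases before it. Ndufs8 has 3 CCAAT boxes, and both genes have an ETS match just after the start, which is not printed. Ndufb11 has 4 CCAAT boxes, read, like that of Sdhb, as ATTGG on the strand shown, while Ndufa4 has no match to any of the 4 motifs in the window. The promoters of Ndufb8, Ndufa3, Atp5o and Uqcrc1, also called, were read in the same way and are not shown. None of these has a match in the 150 bases before the start, and their matches lie after it. By adjusted p, Ndufb8 stands ahead of Sdhb and Ndufb11. Over 68 members with a promoter in the RefSeq table (windows of 300 bases, 250 before and 50 after the start), 35.3% held the NRF1 core against 11.2% of 27025 genes with a promoter, 23.5% an ETS match against 9.93%, 17.6% a YY1 match against 7.28% and 44.1% a CCAAT box against 41.1%. The full NRF1 site, which contains the core, was found in 5 of the 68 (7.35%), against 1.07% of all genes with a promoter. Of the 9 members higher in Ly6C hi that had a promoter, 5 held an NRF1 core or an ETS match, against 33 of the 68 members (48.5%) and 18.9% of all genes with a promoter. A match is a description of the letters and not evidence of binding.

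Rows on mitochondrial DNA went the opposite way. The table holds 13 rows on chrM without symbols, which were matched to the GENCODE genes of the same build by position after their values had been seen. Of these 12 were lower in Ly6C hi at an adjusted p below 0.05 and 0 higher (limma, over all 17248 genes, of which 3.41% were lower), with a median log2 difference of -1.02. The row at positions 5325 to 6941, which covers mt-Co1, the catalytic subunit of complex IV, stood at 42936 ± 10977 normalized counts in Ly6C hi and 94842 ± 39618 in Ly6C low of vehicle mice, and at 31827 ± 6675 and 69653 ± 5731 in Ac-6-FP mice (SD, n = 5 each). It was lower in Ly6C hi in 10 of 10 mice, 2.17-fold (log2 -1.12 ± 0.09 SE, adjusted p = 1.37e-05).

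The row from 11742 to 15288, which covers mt-Nd5 and mt-Cytb and, on the other strand, mt-Nd6, was 2.65-fold lower in Ly6C hi (log2 -1.41 ± 0.11 SE, adjusted p = 1.34e-05). The row for mt-Nd4l and mt-Nd4, from 9876 to 11544, was 2.26-fold lower (adjusted p = 7.2e-05), and that for mt-Nd2, from 3845 to 5171, was 2.77-fold lower in 9 of 10 mice (adjusted p = 0.000407). The rows are thus of subunits of complexes I, III and IV, the same complexes whose nuclear subunits had medians above 0. The rows with ribosomal RNA genes, mt-Rnr1 and mt-Rnr2, were lower as well, as were those beyond mt-Cytb. Transfer RNA genes were left out of the matching. Several rows overlap each other and share reads, and strand is not given, so they are not independent.

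The sum over chrM was 0.561 ± 0.110 times the sum over the nuclear members in Ly6C hi and 1.63 ± 0.550 times in Ly6C low (SD, n = 10 each), and these ranges, 0.398 to 0.770 and 1.05 to 3.01, did not overlap. Without mouse 13, whose Ly6C low library had the largest chrM share at 5.31%, 11 rows remained lower. With edgeR 10 rows were lower, within the vehicle mice 1 and within the Ac-6-FP mice 4. With chrM left out of the total, the members' share was still higher in Ly6C hi in 10 of 10 mice, 2.07% ± 0.194 against 1.57% ± 0.258 (SD, n = 10 each).

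Genes that act with the respiratory chain were followed as lists. A list of nucleotide, phosphate and proton carriers, which also holds the outer membrane channels Vdac1, Vdac2 and Vdac3, the uncoupling protein Ucp2 and the ATPase inhibitor Atpif1, had 2 of 8 tested genes higher in Ly6C hi and 0 lower: Slc25a5 and Slc25a4, the adenine nucleotide translocases, were 1.34-fold and 1.74-fold higher in 10 of 10 mice (adjusted p = 0.00148 and 0.0278). Among assembly factors, 1 of 12 for complex I, the methyltransferase Ndufaf7, was higher (1.77-fold, adjusted p = 0.0416), and 0 of 4 for complex II, 0 of 5 for complex III, 0 of 18 for complex IV and 0 of 2 for ATP synthase passed in either direction. None of 16 electron carriers and mobile factors, 13 transcriptional regulators of mitochondrial genes or 17 citric acid cycle genes passed in limma, where 3, 1 and 1 were higher and 0, 1 and 2 lower at an unadjusted p below 0.05.

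Of 74 mitochondrial ribosomal proteins, which translate the chrM transcripts, 2 were higher in Ly6C hi (Mrpl33, 1.46-fold, adjusted p = 0.00811, and Mrpl28, 1.61-fold, adjusted p = 0.0353), with a median log2 difference of 0.19. The 79 cytosolic ribosomal proteins tested had a median of 0.12. Of 18 glycolytic enzymes, Pkm, the pyruvate kinase of macrophages, was higher (1.91-fold, adjusted p = 0.000998), whereas Ldha, which makes lactate, and Eno3, the muscle enolase, were lower (log2 -0.49 and -6.24, adjusted p = 0.0351 and 0.000123), with a median of 0.12. How these lists differ from the OXPHOS members was not tested.

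The second question was whether blocking MAIT cells changed the members within a fraction. In Ly6C hi, 0 of 79 tested members passed an adjusted p of 0.05 between 5 Ac-6-FP and 5 vehicle mice in limma, where 13 of 17248 genes did (0.0754%), and edgeR called 0 members too. At an unadjusted p below 0.05, 3 members were higher and 10 lower with Ac-6-FP, that is 3.8% and 12.7% of the members, against 6.71% higher and 2.02% lower of all genes. Of the members 28 lay above 0, or 35.4% against 62.9% of all genes, and the groups overlapped for every tested member, where they did not for 0.968% of all genes with Ac-6-FP higher and 0.377% with it lower. The count of members lower at that p was not stable: it was 0 with a covariate for genes detected, 6 with edgeR, 5 without mouse 12, 13 or 20 and 6 without mouse 14 or 19. It was 7 without mouse 18, 9 without mouse 15 or 17, 11 without mouse 16 and 13 without mouse 11. The share lower at that p was 8.65% of the genes with a mean of 1000 or more. The median log2 difference over the members was -0.10, against 0.35 over all genes and 0.02 over those with a mean of 1000 or more. With a covariate for genes detected the members' median was 0.02, so its sign was not stable, and that of all genes was 0.01.

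Ndufv3, an accessory subunit of complex I near the NADH site, and Cox6a2 had the smallest p of the members in Ly6C hi, 0.00575 each before adjustment in limma. The normalized counts of Ndufv3 were 1536, 2512, 1784, 2202 and 2004 in the vehicle mice and 1521, 1288, 1542, 1434 and 1358 in the Ac-6-FP mice. The groups overlapped only in the lowest vehicle library, and the log2 difference of -0.47 ± 0.13 SE had an adjusted p of 0.381 in limma. Ndufb4, Ndufa7 and Atp5k, all small accessory subunits, followed with -0.65 ± 0.21, -0.53 ± 0.18 and -0.74 ± 0.24 SE. Cox6a2 was at 0 in all 5 vehicle libraries, which does not exclude a low level, and at 73.7, 6.55, 41.5, 48.1 and 0 in the Ac-6-FP libraries (two-sided exact permutation p = 0.0476, where 0.00794 is the smallest p that 5 against 5 can give). It did not pass over all genes (limma adjusted p = 0.381).

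In Ly6C low, 0 of 79 members passed either, in limma or in edgeR, against 9 of 17248 genes in limma (0.0522%). At an unadjusted p below 0.05, 4 were higher and 15 lower with Ac-6-FP, that is 5.06% and 19.0% of the members, against 7.87% higher and 1.44% lower of all genes and 7.77% lower of those with a mean of 1000 or more. The members' median was -0.25, all genes stood at 0.91 and the genes with a mean of 1000 or more at 0.12. The count of members lower at that p was not stable here either: it was 3 with a covariate for genes detected, 7 without mouse 12, 14 or 20, 8 without mouse 19, 9 without mouse 18 and 29 without mouse 11, and 13 with edgeR. Without mouse 13 the medians of the members and of all genes were -0.28 and 0.35, with a covariate for genes detected -0.19 and 0.06, and with edgeR -0.32 and 0.29. More genes were detected with Ac-6-FP in both fractions, 13411 ± 1604 against 10793 ± 2267 in Ly6C hi and 14024 ± 1880 against 10952 ± 3954 in Ly6C low (SD, n = 5 each).

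**Figure D4:**
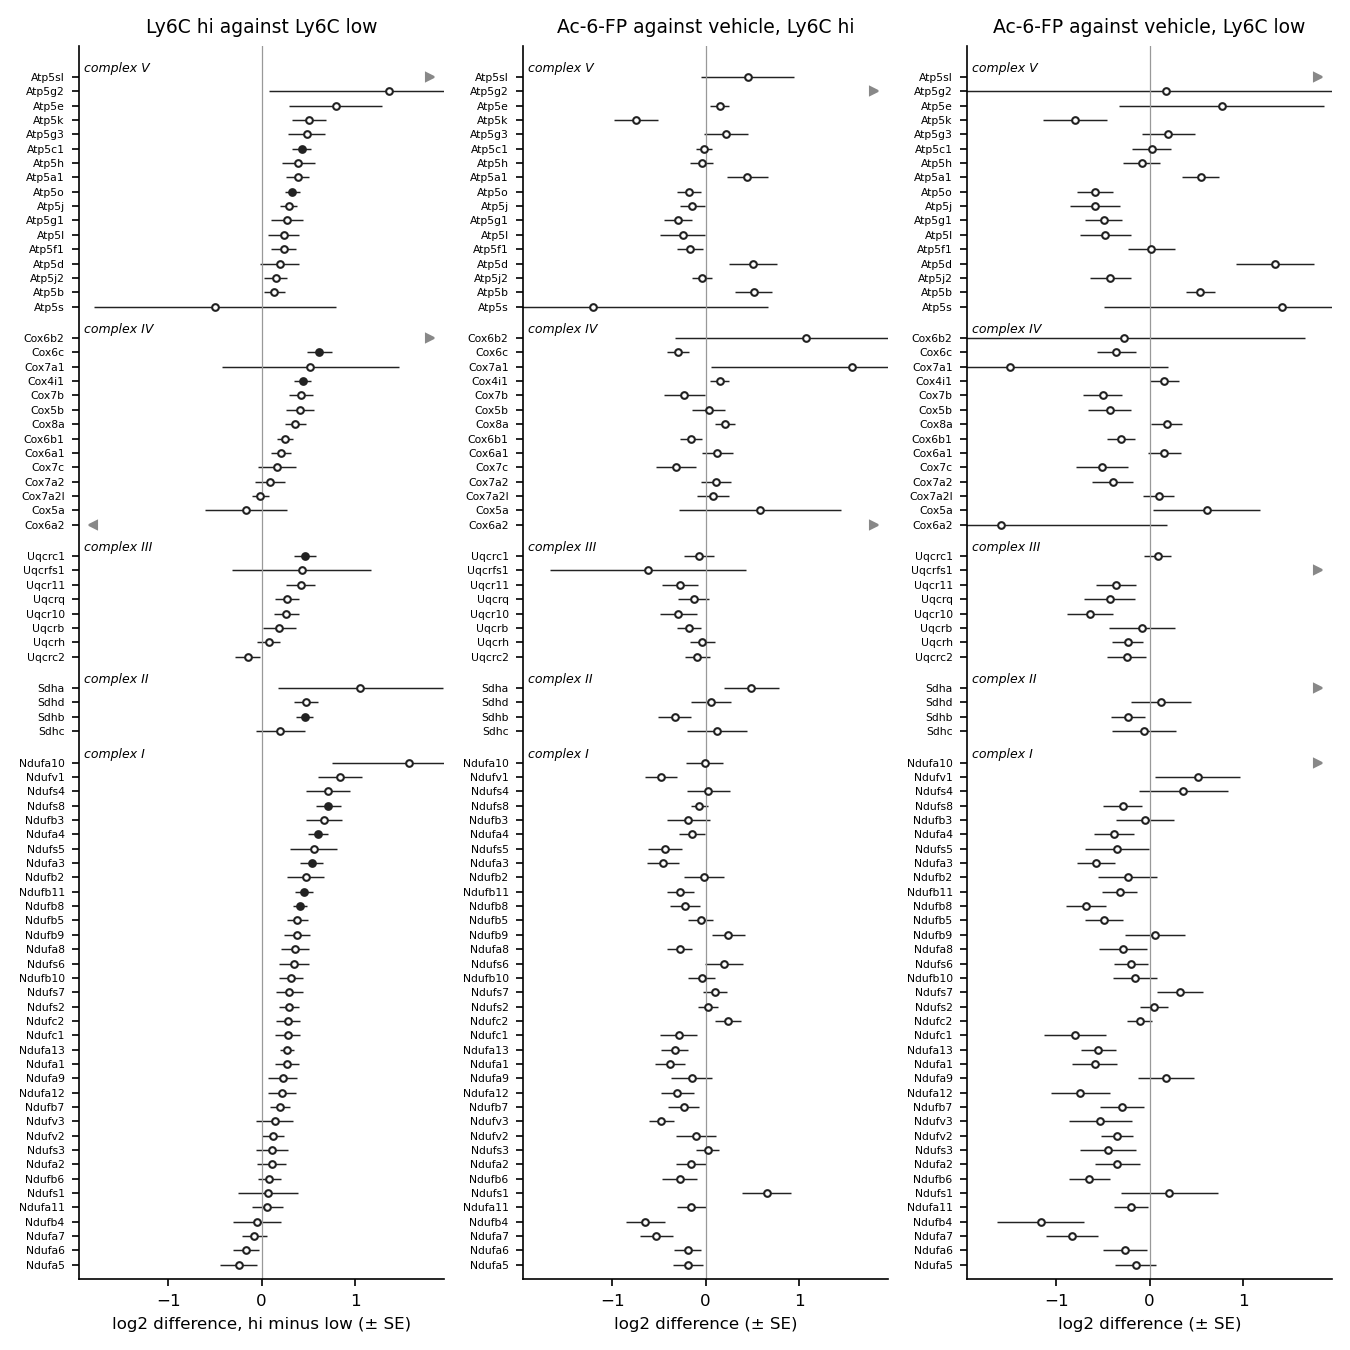
The log2 difference ± SE (horizontal axes) of each tested member, grouped by complex and in the same order in each panel, for Ly6C hi against Ly6C low (10 mice), and for Ac-6-FP against vehicle in Ly6C hi and in Ly6C low (5 against 5 mice). Filled points passed an adjusted p of 0.05, 11 in the first panel and 0 in the others, and grey arrows mark values beyond the axis.

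The members did not lie on one side in Ly6C low. Among the subunits of the catalytic head of the ATP synthase, Atp5b, the beta subunit that makes ATP, stood at 5887, 3412, 3838, 3500 and 4273 normalized counts in vehicle mice and at 5374, 6285, 6328, 5805 and 6104 in Ac-6-FP mice. Only the vehicle library of mouse 11 reached the Ac-6-FP range, and the log2 difference was 0.54 ± 0.16 SE (limma, adjusted p = 0.521). Without mouse 11 it passed, with an adjusted p of 0.0333.

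Atp5d, the delta subunit of the head, was the only member whose groups did not overlap in either fraction, as in 1.29% of all genes in this direction. Its normalized counts were 1306, 566.2, 958.0, 301.4 and 1495 in vehicle mice and 1811, 2247, 2215, 1661 and 2225 in Ac-6-FP mice (two-sided exact permutation p = 0.00794, the smallest possible; log2 1.34 ± 0.42 SE, limma adjusted p = 0.528). The alpha subunit Atp5a1 stood at 0.55 ± 0.20 SE, the gamma subunit Atp5c1 at 0.02 ± 0.21 SE and the epsilon subunit Atp5e at 0.77 ± 1.10 SE. The value of Atp5e rested on the Ly6C low library of mouse 13, at 41.7 normalized counts, and its group means were 2043 in vehicle and 1885 in Ac-6-FP mice. In Ly6C hi, Atp5a1, Atp5b and Atp5d stood at 0.45, 0.51 and 0.51, and the core subunit of complex I Ndufs1 at 0.65 ± 0.26 SE.

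Members below 0 in Ly6C low included the stalk subunit Atp5o, which stood at 4025, 6553, 6758, 7469 and 5235 normalized counts in vehicle mice and 4353, 4563, 4189, 3480 and 3153 in Ac-6-FP mice, with a log2 difference of -0.59 ± 0.19 SE (adjusted p = 0.528), and the groups overlapped through vehicle mouse 11. Ndufb8 stood at 6270, 9677, 12948, 11460 and 8273 in vehicle mice and 7853, 5355, 6674, 4977 and 5021 in Ac-6-FP mice (log2 -0.68 ± 0.22 SE, adjusted p = 0.528). In both genes vehicle mouse 11 was again the library inside the Ac-6-FP range. Ndufb4, at -1.16 ± 0.47 SE, was the lowest of complex I, Uqcr10, at -0.63 ± 0.25 SE, the lowest of complex III, and Atp5k, at -0.80 ± 0.34 SE, the lowest of complex V. Of the 36 tested members of complex I, 28 lay below 0 in Ly6C low and 28 in Ly6C hi, where 70.5% and 62.9% of all genes lay above 0. With a covariate for genes detected the median of complex I was -0.03 in Ly6C hi, in place of -0.17, and -0.19 in Ly6C low, in place of -0.29.

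These values followed transcript length in Ly6C low. Over the 78 tested members with a protein-coding transcript in GENCODE, Spearman's rho between annotated length and log2 difference was 0.406 in Ly6C low and 0.130 in Ly6C hi, and 0.048 for Ly6C hi against Ly6C low. The 39 members shorter than 737 bases had a median of -0.35 in Ly6C low with 7 above 0, and the 39 others a median of -0.05 with 19 above 0. These are correlations across genes, which are not independent replicates, and are given as descriptions. With a covariate for genes detected rho in Ly6C low was 0.258, and without mouse 13 it was 0.434. Among all genes with a mean of 1000 or more, length was found for only 1531 of 2047 (74.8%), so the check does not cover them all. Over those 1531 genes rho in Ly6C low was 0.292, and nothing particular to the members is read from the trend.

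None of the lists of genes acting with the respiratory chain, of ribosomal proteins or of glycolytic enzymes held a gene past the adjusted threshold for Ac-6-FP in limma in either fraction. Of the 18 glycolytic enzymes, 6 were higher and 0 lower in Ly6C hi and 5 higher and 1 lower in Ly6C low at an unadjusted p below 0.05, and 16 lay above 0 in each fraction, with medians of 0.58 and 0.64. Over all genes 6.71% and 7.87% were higher at that p, and the medians were 0.35 and 0.91. With a covariate for genes detected the medians of the glycolytic enzymes were 0.20 and 0.32 and those of all genes 0.01 and 0.06, so in Ly6C low the order of the list and all genes turned with the covariate.

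The third comparison asked whether the response to Ac-6-FP differed between the fractions. In limma 0 of 17248 genes (0%) passed, and 0 of the 79 members, of which 4 had a positive and 1 a negative difference at an unadjusted p below 0.05, against 1.72% and 3.15% of all genes. Of the members 65.8% lay above 0, against 42.2% of all genes. The smallest p among the members belonged to Ndufb8, with a difference in response of 0.46 ± 0.15 SE (Ly6C hi minus Ly6C low, adjusted p = 0.830). Atp5o and Atp5j had differences in response of 0.41 ± 0.16 and 0.44 ± 0.19 SE, and stood at -0.18 and -0.14 in Ly6C hi and at -0.59 and -0.58 in Ly6C low. Cox6a2 and Atp5sl, at 5.62 and -4.90, had the next smallest p after Ndufb8, and both rest on libraries at 0. The median difference in response over the members was 0.11, against -0.27 over all genes. Without mouse 13 these medians were 0.17 and 0.01, so the sign over all genes rested on that mouse. The rows on chrM had medians of -0.22 in Ly6C hi and -0.35 in Ly6C low for Ac-6-FP against vehicle, and 0 of 13 passed in either in limma, with 0 and 3 lower at an unadjusted p below 0.05. In Ly6C low the median of these rows was -0.11 without mouse 13 and 0.02 with a covariate for genes detected, and in Ly6C hi it was -0.09 with the covariate.

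A few members were too sparse for a fold change to be read. Of the 79 tested, 8 were at 0 in at least 1 library: Atp5s in 9 of 20 libraries, Cox6a2 in 8, Cox7a1 in 5, Cox6b2 in 4, Atp5g2 and Atp5sl in 3 each, and Ndufa10 and Sdha in 1 each, the Ly6C low library of mouse 13. Atp5s, now Dmac2l, is a coupling factor and not a subunit of the synthase, and it ranged from 0 to 217.1 normalized counts in Ly6C hi and from 0 to 99.2 in Ly6C low. Over the 71 members above 0 in every library, 11 were higher in Ly6C hi and 0 lower, with a median log2 difference of 0.28.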

How the data were processed

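Poly(A) RNA libraries were sequenced with reads of 75 bases. Per the labels and the study's methods, the authors mapped reads with STAR 2.4.0 to mm10, counted them on constitutive regions of FAST DB genes and divided the counts by DESeq size factors. The deposited signal is this normalized count. Multimapping and strand handling are not given in the sources used here. Of the values above 0, 99.97% were whole multiples of what 1 read is worth (tolerance 0.006), so reads were recovered for edgeR. Genes with a group mean of at least 10 were tested on log2(normalized count + 1) with limma 3.58.1 (variance trend, Benjamini-Hochberg over 17248 genes), within mice for Ly6C hi against Ly6C low. Pairing comes from the same animal. Deviations from group means correlated within a mouse at a median of 0.034 over all genes. Group shares and sums used all rows. A fold is on the log2(count + 1) scale. edgeR 4.0.16 and exact permutation tests (two-sided) were used where named. Scripts were tested on simulated data. The members and the gene lists were chosen with earlier results of these data known. Genes were named by a rule: members past the threshold (at most 12 by p, or the 5 smallest p where fewer than 5 passed), the member with the highest and the lowest difference in each complex, the isoform families, the 5 tested members at 0 in most libraries, and at most 3 called genes of each list; Uqcrfs1, Cox7a2l, Sdhd, Ndufv1, Cox8a and other subunits of the ATP synthase head were added after their values were seen. A list of mitochondrially encoded subunits matched 0 symbols. Marker lists of B cells, hepatocytes, endothelial, stellate, Kupffer, erythroid and cycling cells were also summed. Alternatives changed the pseudocount, filter, scaling, covariate, block, test and mice. Calls on single genes of the cytosolic ribosomal protein list between the fractions are not reported here.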

Additional observations from a re-analysis of the deposited data

Results flagged for a closer look

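Among 92 groups of 5 libraries examined (20 named members, the share on the members, the share on chrM and the number of genes detected, in 4 groups each), 1 held a library far from the other 4, where chance alone gives about 1 in 20 groups. It was Sdhb in Ly6C low of vehicle mice, at 10323 normalized counts in mouse 12. Sdhb was higher in Ly6C hi in 10 of 10 mice, mouse 12 included.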

How the results depend on the processing

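Of 23 alternatives to the comparison of Ly6C hi with Ly6C low, Ndufa4 and Ndufs8 lost their call only within the vehicle mice. For that comparison the count over all genes was 900, and it was 545 within the Ac-6-FP mice, 79 within the vehicle mice, 511 with edgeR, 392 with edgeR without mouse 15 and 1848 with a covariate for genes detected. The count of members was 11, and it was 0 within the vehicle mice, 5 with edgeR without mouse 15, 18 with a filter at 100, 22 with the covariate and 22 with scaling to the total, where the members' median was 0.44 and that of all genes moved from -0.03 to 0.08. Calls over all genes were 312 higher and 588 lower, 1097 and 751 with the covariate, and 437 and 516 with total scaling. Leaving out 1 mouse gave 7 to 13 members higher in Ly6C hi (7 to 14 in either direction). Without the replicate block by mouse, 987 genes and 9 members passed between the fractions and 3 genes in the difference of responses, against 0 with it. For Ac-6-FP in Ly6C hi the 13 genes became 0 with edgeR, 0 with edgeR without mouse 15, 4 with the filter at 100, 0 with the covariate, 5 with no filter and 0 with quantile normalization, and 0 to 133 without 1 mouse, with the members' median at 0.02 with the covariate. In Ly6C low the 9 genes became 0 with edgeR, 0 with edgeR without mouse 15, 2 with the filter at 100, the covariate, no filter or a pseudocount of 10, and 0 with quantile normalization, and 0 to 103 without 1 mouse. The member count there was 0 to 1, Atp5b passing without mouse 11. For the difference of responses 2 genes passed with the filter at 100 and 1 with quantile normalization, 0 to 4 without 1 mouse, and the members' median was 0.21 with quantile normalization. The share in Ly6C hi of Ac-6-FP mice was 1.87% without its highest member. No result reversed its direction after a call, and the causes were not tested. Analyses with edgeR without mouse 15, and with chrM left out of the total, were chosen after seeing the data: the recovered reads of that mouse's Ly6C hi library rest on a step close to 1.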
